A study of Homo sapiens with 12 samples.

Results

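The 39 genes described here encode the enzymes that build cholesterol and fatty acids, the SREBP regulators that control those enzymes and the LXR receptors with some of their target genes. The genes were taken from a list of names in these routes, set with earlier results of these data known. All 39 were listed in both deposited tables, which hold 16633 different gene symbols between them. By role they comprise 8 genes of the mevalonate route, 12 of the sterol route, 8 of fatty acid synthesis, 6 SREBP regulators and 5 genes of the LXR branch.

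HT1080, an established human fibrosarcoma line that the labels describe as wild type, was the source of the polyadenylated RNA that was sequenced. The PMA experiment compared 3 libraries of cells given 40 nM phorbol myristate acetate (PMA), an activator of protein kinase C, with 3 untreated control libraries. The ConA experiment set 3 libraries made after 40 µg/mL of the lectin concanavalin A (ConA), which binds cell surface sugars, against 3 untreated controls of its own. Treatment lasted 24 h. All cells were seeded in medium depleted of biotin, and the labels give a low-serum, biotin-depleted medium for the treatment, without naming the controls there. If the controls were kept in another medium, treatment and medium cannot be told apart within either experiment. The study used these treatments to perturb the proteins found near TIMP2, a secreted metalloproteinase inhibitor, and compared the transcriptome of treated cells with that of their controls. The labels do not say whether the 3 libraries of a group came from separate cultures, so p-values measure the spread between these libraries, which may be technical. Because each treatment has its own experiment and its own table, treatment and experiment cannot be told apart where the treatments are compared.

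Cells make cholesterol from acetyl-CoA through mevalonate, farnesyl diphosphate, squalene and lanosterol, and make fatty acids from acetyl-CoA through malonyl-CoA. SREBP transcription factors are held in the endoplasmic reticulum by INSIG proteins when sterols are plentiful, and are escorted by SCAP to the Golgi, where they are cleaved and freed, when sterols are scarce. SREBP2 acts mainly on sterol genes and SREBP1 mainly on fatty acid genes, and LXR receptors, which bind oxysterols, turn on cholesterol export genes and SREBF1 itself. Biotin is the cofactor of acetyl-CoA carboxylase, the enzyme encoded by ACACA.

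The libraries held an estimated 33645486 to 45580447 reads, with a median of 40972203. All 10 markers of mesenchymal cells (VIM, FN1 and others) were listed in every group and took up to 2.1% of the summed normalized counts of a library. Their summed level was 647800 to 655100 in the PMA controls and 645900 to 670600 with PMA. It was lower with ConA, at 644300 to 708300, than in the ConA controls, at 837400 to 903400. Of 10 T and NK cell markers, 9 were listed in the PMA table, where their summed level was 968.6 to 1102 in the controls and 1458 to 1800 with PMA, at most 0.00447% of a library, and only CD3D was listed in the ConA table. No erythroid marker was listed, and the summed level in a library was at most 788.1 normalized counts for the epithelial list, 466.8 for the monocyte list and 21.57 for the B cell list. In RNA from whole cultures, fewer cells with a transcript and less of it in each cell cannot be told apart.

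With PMA, most of the 39 transcripts were lower, and the median change of every step was negative. Genes of these routes outside the 39 are given below and moved in both directions. Of the 39 genes, 35 fell, 2 rose (ELOVL6 and NR1H2) and 2 did not pass the test (TM7SF2 and ABCA1, each of which passed as lower under 1 other scaling), at an adjusted p of at most 0.05 (limma). Neither rise passed under quantile normalization or equal summed counts, where NR1H2 turned negative. Among all 15153 genes tested, 30.5% fell by this rule and 32.8% rose. By a stricter rule, a change of at least 2-fold at an adjusted p of at most 0.0001, 22 of the 39 fell and 0 rose, against 4.61% and 4.03% of all genes. The median log2 fold change of the 39 was -1.20, a level of 43.5% of the controls, while the median of all genes was 0.0029. In 35 of the 39 all PMA libraries lay below all controls and in 2 all lay above, against 33.1% and 34.8% of all genes. The same 22 genes and 3 more passed the strict rule when all libraries were scaled to equal summed counts, but that scaling moved the median of all genes by -0.12 and the share of higher genes among all that passed from 51.8% to 35.6%.

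With ConA fewer of the genes fell, and by less at the median. Of the 39, 28 fell, 1 rose (STARD4, a carrier that moves cholesterol between membranes) and 10 did not pass, against 32.5% lower and 32.8% higher among 15139 genes tested. Only 4 of the 39 fell by the strict rule (PMVK, ACACA, SCD and ABCG1) and 0 rose, where 2.88% and 5.83% of all genes did. Scaling to equal summed counts, or a fit with no variance trend, left 2 of these 4 past the strict rule. The first lost PMVK and SCD, and the second lost ABCG1 and PMVK. The median log2 fold change was -0.29, or 81.8% of the controls, beside -0.0022 for all genes. The ConA libraries lay below all controls for 30 of the 39 and above them for 1, against 34.4% and 34.9% of all genes.

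**Figure D1:**
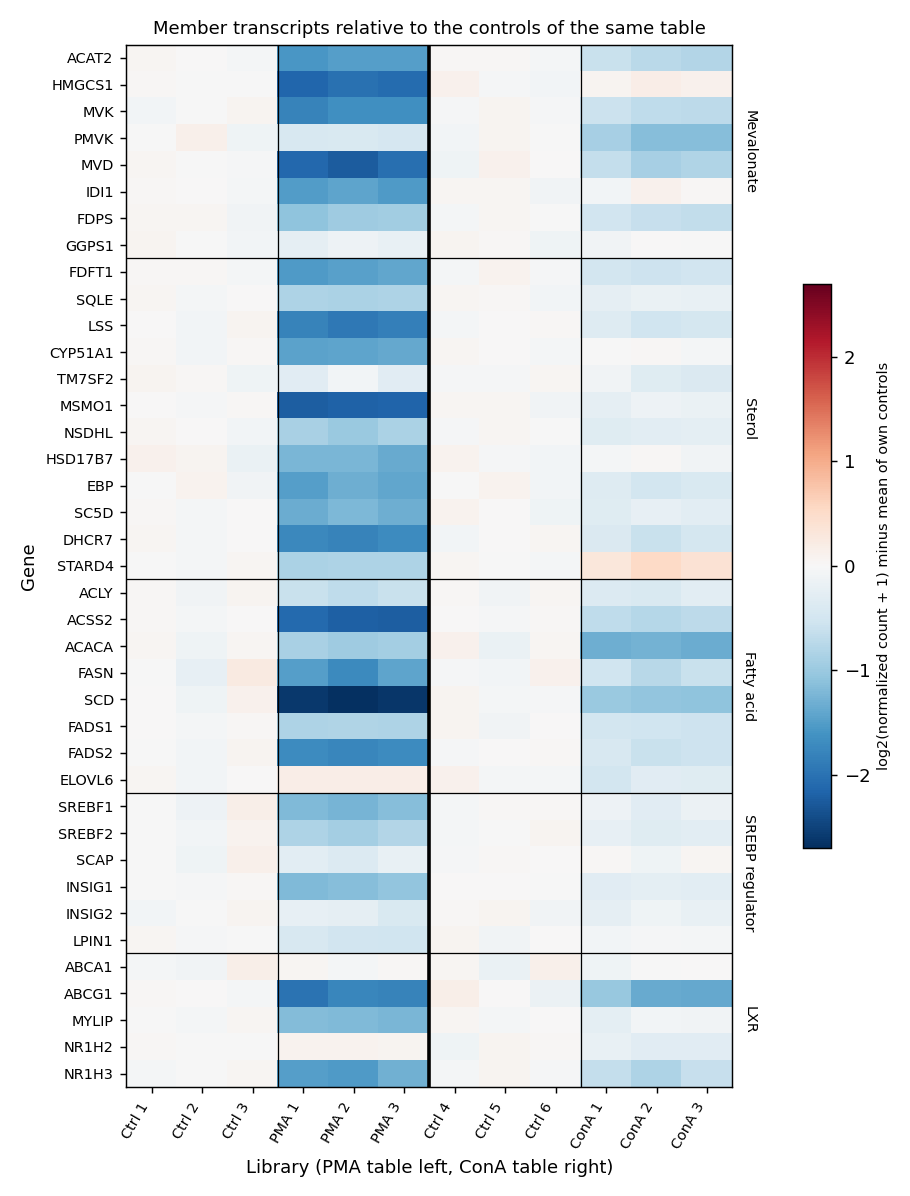
Each row is a gene and each column a library; colour gives log2(normalized count + 1) minus the mean of the controls of the same table, with blue lower and red higher. The 3 PMA columns are blue in nearly all rows, while the 3 ConA columns are paler, with STARD4 in red.

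With both treatments 26 of the 39 genes fell, where 14.9% of the 14661 genes tested in both tables passed as lower in both. A further 8 fell with PMA and did not pass with ConA (HMGCS1, IDI1, GGPS1, CYP51A1, HSD17B7, SCAP, LPIN1 and MYLIP), and of these all but GGPS1 passed the test of the difference between treatments, which GGPS1 passed under equal summed counts (-0.35, adjusted p = 0.00264). STARD4 fell with PMA and rose with ConA, and ELOVL6 and NR1H2 rose with PMA and fell with ConA. The difference itself, the PMA change minus the ConA change in 1 fit of all 12 libraries, was lower for 31 of the 39 genes and higher for 4 (PMVK, ACACA, ELOVL6 and NR1H2), against 30.7% and 30.4% of 15030 genes. By the strict rule 15 of the 39 were lower and 0 higher, where 6.89% and 3.67% of all genes were. Scaling to equal summed counts moved the median difference of all genes from -0.01 to -0.20 and the share of higher genes among those that passed from 49.8% to 32.2%.

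**Figure D2:**
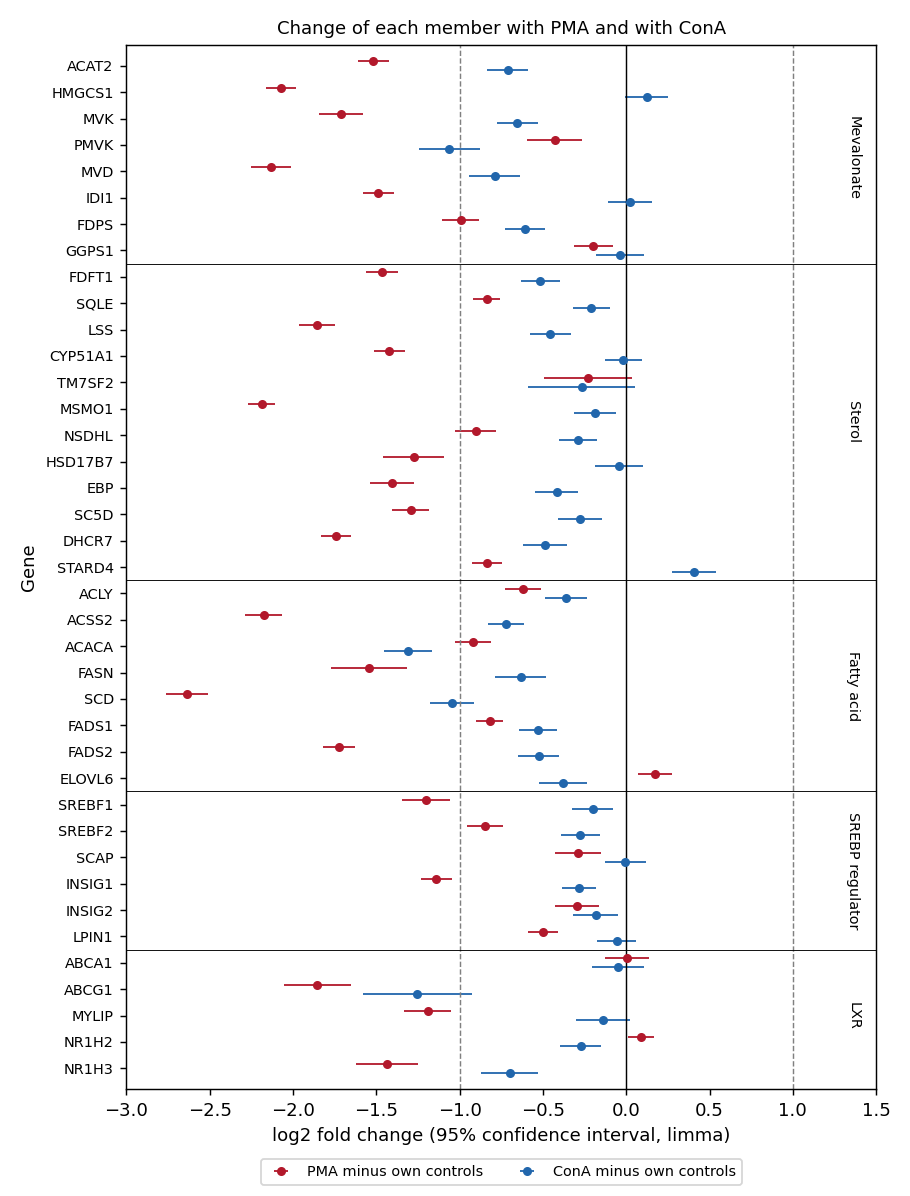
Points are log2 fold changes against the controls of the same table and bars their 95% confidence intervals (limma, 3 libraries a group), with PMA in red, ConA in blue and dashed lines at a 2-fold change. HMGCS1, MSMO1 and SCD lie left of -2 with PMA, and PMVK and ACACA lie further left with ConA than with PMA.

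By step, the median log2 fold change with PMA was -1.502 for the mevalonate genes, -1.35 for the sterol genes, -1.23 for the fatty acid genes, -0.67 for the SREBP regulators and -1.19 for the LXR branch. With ConA these medians were -0.63, -0.27, -0.58, -0.19 and -0.27 in the same order. The step medians of single libraries did not overlap between treated and control libraries in any step of either table. Single genes often separated too. Of all genes, 33.1% lay below and 34.8% above all controls with PMA, and 34.4% and 34.9% with ConA. No such share was taken for medians of other gene sets. For the mevalonate genes, the PMA libraries lay at -1.54 to -1.46 and their controls at -0.06 to 0.04, and the ConA libraries lay at -0.69 to -0.55 and their controls at -0.04 to 0.05.

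**Figure D3:**
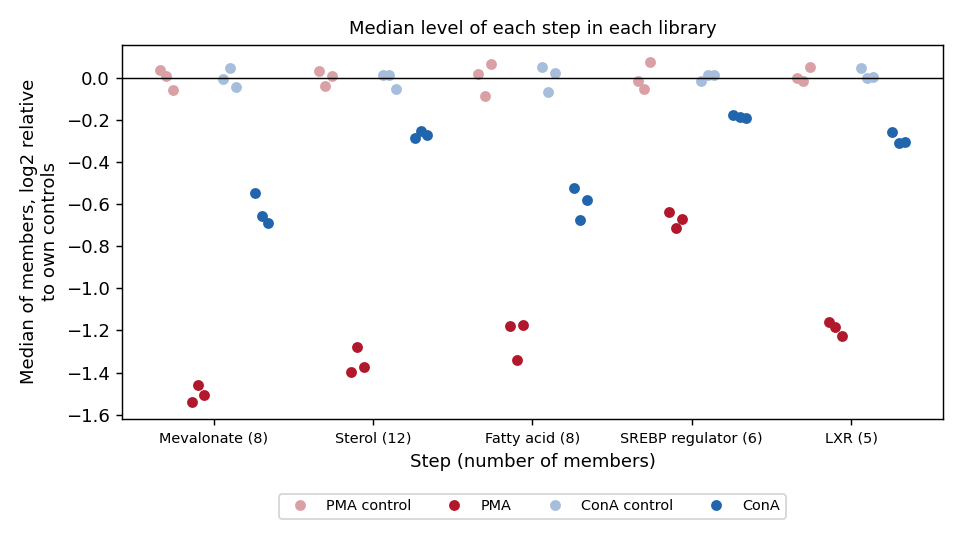
Each point is 1 library: the median over the genes of a step of log2(normalized count + 1), relative to the mean of the controls of its own table. PMA libraries (dark red) lie lowest in every step, ConA libraries (dark blue) between them and the controls (pale), which stay near 0.

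Promoter sequence was examined because SREBP factors bind a sterol element in many of these genes, together with NF-Y at CCAAT boxes and Sp1 at GC boxes. RefSeq promoters of 300 bases (GRCh38.p14) were found for 34 of the 39 genes, 52 promoters in all, and those of ACAT2, FDFT1, SQLE, FASN and ABCG1 were not in the table. The letters TCACNCCAC, a core of the sterol element, stood on either strand in 1 of the 52 (1.92%), that of SREBF2, and in 1.13% of all 35116 promoters. CCAAT stood in 28 of the 52 (53.8%) and in 34.6% of all promoters, and GGGCGG in 44 of the 52 (84.6%) and in 45.0% of all. No letters of different motifs overlapped in these 52, some of which belong to the same gene and share bases. A match is a description of letters only, and a missing match says only that these letters are not in the window.

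SREBF2 is shown because it alone held the sterol element core, and HMGCS1, MSMO1 and SCD as 1 example from each enzyme step, picked after their values were seen from the 5 genes that fell more than 4-fold with PMA (the others were MVD and ACSS2). Each is written 5′ to 3′ on its own strand, with CCAAT and the sterol element core in capitals (on the opposite strand CCAAT reads ATTGG). SREBF2 lies at chr22:41832855-41833154 on the plus strand, HMGCS1 at chr5:43313363-43313662 on the minus strand (the upstream of its listed starts), MSMO1 at chr4:165327419-165327718 on the plus strand and SCD at chr10:100346983-100347282 on the plus strand.
SREBF2: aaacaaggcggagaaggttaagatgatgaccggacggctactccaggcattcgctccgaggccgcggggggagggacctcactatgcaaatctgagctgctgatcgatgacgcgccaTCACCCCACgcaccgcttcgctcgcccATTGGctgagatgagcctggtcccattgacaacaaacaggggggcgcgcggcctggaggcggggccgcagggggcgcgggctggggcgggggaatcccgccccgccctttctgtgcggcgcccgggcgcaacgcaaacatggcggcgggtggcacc
HMGCS1: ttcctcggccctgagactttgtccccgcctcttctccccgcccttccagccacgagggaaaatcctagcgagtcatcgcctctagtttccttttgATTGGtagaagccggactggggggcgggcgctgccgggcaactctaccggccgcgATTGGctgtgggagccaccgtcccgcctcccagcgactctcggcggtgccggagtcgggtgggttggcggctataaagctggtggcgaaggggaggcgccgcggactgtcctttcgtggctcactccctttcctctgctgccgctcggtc
MSMO1: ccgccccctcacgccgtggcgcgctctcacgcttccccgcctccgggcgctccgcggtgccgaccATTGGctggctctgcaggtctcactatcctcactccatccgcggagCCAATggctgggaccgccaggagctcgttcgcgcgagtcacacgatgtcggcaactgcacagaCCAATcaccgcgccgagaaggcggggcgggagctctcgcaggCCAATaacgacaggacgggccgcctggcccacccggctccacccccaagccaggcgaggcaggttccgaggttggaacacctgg
SCD: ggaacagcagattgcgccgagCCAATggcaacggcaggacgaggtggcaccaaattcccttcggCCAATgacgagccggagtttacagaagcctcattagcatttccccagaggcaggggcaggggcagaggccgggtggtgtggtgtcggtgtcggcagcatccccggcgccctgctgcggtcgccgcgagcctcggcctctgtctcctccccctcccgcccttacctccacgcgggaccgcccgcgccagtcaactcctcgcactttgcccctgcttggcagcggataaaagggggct

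All 8 mevalonate genes fell with PMA and 5 fell by the strict rule, while with ConA 5 of the 8 fell and 1 fell by the strict rule. Counts of this and the later steps are to be read against all genes tested. Of those, 30.5% fell with PMA, 4.61% by the strict rule, and 32.5% fell with ConA, 2.88% by the strict rule. ACAT2, the thiolase that joins acetyl-CoA units at the start of the route, stood at 5863, 5744 and 5440 normalized counts in the PMA controls and 1920, 2012 and 2021 with PMA. In the ConA table it stood at 17028, 17115 and 16186 in the controls and 10996, 10057 and 9718 with ConA. The treated libraries lay below all controls in both, with log2 fold changes of -1.52 ± 0.043 (SE, adjusted p = 1.28e-10) and -0.71 ± 0.0567 (adjusted p = 8.47e-08). ACAT2 shares 34.8% of its exon bases with SOD2 on the opposite strand, whose log2 fold change was 2.32 with PMA and 4.56 with ConA. It also shares 45.8% with SOD2-OT1 (-1.83 and -0.65) and 12.5% with TCP1 (0.62 and -0.22), both on the opposite strand, and the strand setting of the counting is not given in the sources used here.

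HMGCS1, the synthase that makes HMG-CoA, was the mevalonate gene with the largest gap between the treatments. It stood at 13357, 12951 and 12926 normalized counts in the controls and 2977, 3252 and 3099 with PMA, no library overlapping. With ConA it stood at 27943, 29732 and 28780 against 28640, 25833 and 24999 in the controls, and the groups overlapped. The log2 fold change was -2.07 ± 0.0413 with PMA (SE, adjusted p = 8.98e-12) and 0.12 ± 0.0599 with ConA (adjusted p = 0.0843), and the difference was -2.20 ± 0.073 (adjusted p = 5.25e-14, limma). With ConA the gene passed as higher under quantile normalization (0.29), under equal summed counts (0.19), in 1 fit of all 12 libraries (0.12) and without ConA control 4 (0.18).

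Mevalonate kinase and phosphomevalonate kinase, encoded by MVK and PMVK, act in succession. MVK stood at 1702, 1773 and 1867 normalized counts in the controls and 506, 561 and 563 with PMA, and at 3481, 3743 and 3473 in the controls and 2391, 2230 and 2181 with ConA. Its libraries separated in both tables, at log2 fold changes of -1.71 ± 0.0602 with PMA (SE, 30.5% of the control mean) and -0.65 ± 0.0576 with ConA (63.6%). PMVK stood at 582, 646 and 539.8 in the controls and 435, 442 and 429.8 with PMA, and at 850.3, 944 and 885 in the controls and 479.6, 401 and 403 with ConA. PMVK went the other way from most of the route, falling more with ConA (log2 -1.06 ± 0.0852, adjusted p = 9.06e-08) than with PMA (-0.43 ± 0.0741, adjusted p = 0.000374). The difference was 0.63 ± 0.116 (SE, adjusted p = 0.000151). The strict ConA call of PMVK was lost under equal summed counts and with no variance trend.

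MVD, the decarboxylase that yields isopentenyl diphosphate, stood at 5171, 5018 and 4877 normalized counts in the controls and 1149, 1061 and 1227 with PMA. In the ConA experiment its controls held 9756, 11476 and 10658 and the treated libraries 6760, 5668 and 6016. No libraries overlapped, and the log2 fold changes were -2.13 ± 0.0545 (SE, adjusted p = 5.53e-11) and -0.79 ± 0.0716 (adjusted p = 3.11e-07). IDI1, the isomerase of the next step, stood at 6770, 6707 and 6376 in the controls and 2312, 2461 and 2305 with PMA, and at 11268, 11212 and 10188 in the controls and 10287, 11839 and 11094 with ConA. IDI1 fell with PMA (log2 -1.49 ± 0.0428, adjusted p = 1.43e-10) with no overlap, while the ConA groups overlapped at 0.02 ± 0.0619 (adjusted p = 0.756). The prenyl synthase gene FDPS fell with both treatments (-0.99 and -0.61), and 28.9% of its exon bases lie opposite RUSC1-AS1, at -1.22 and -0.60. GGPS1, which makes geranylgeranyl diphosphate, was at -0.20 with PMA (adjusted p = 0.00755) and -0.04 with ConA (adjusted p = 0.661), and shares 11.3% of its exon bases with TBCE on the same strand.

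Of the 12 sterol genes, 11 fell with PMA, 8 by the strict rule, and with ConA 8 fell, 1 rose and 0 passed the strict rule in either direction. FDFT1, the squalene synthase that commits farnesyl diphosphate to sterols, stood at 15018, 14989 and 14245 normalized counts in the controls and 5084, 5339 and 5594 with PMA, and at 23580, 26155 and 24189 in the controls and 17586, 16756 and 17291 with ConA. It fell in both, by a log2 of -1.47 ± 0.0437 (SE, adjusted p = 1.91e-10) and -0.52 ± 0.0547 (adjusted p = 1.49e-06), without overlap. LSS, which closes the ring to give lanosterol, stood at 12416, 11739 and 13036 in the controls and 3556, 3236 and 3464 with PMA, and at 21233, 22255 and 22559 in the controls and 17228, 15202 and 15779 with ConA. The LSS groups were separate in both tables (log2 -1.86 ± 0.0492 and -0.46 ± 0.0574, SE), with a difference of -1.40 (adjusted p = 6.31e-11). SQLE, the squalene epoxidase, fell with both treatments (-0.84 and -0.21).

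CYP51A1 and MSMO1, which remove methyl groups from lanosterol, both fell with PMA by more than 2-fold. CYP51A1 stood at 10498, 9710 and 10424 normalized counts in the controls and 3731, 3779 and 3911 with PMA, and at 14737, 14255 and 13656 in the controls and 14011, 14440 and 13629 with ConA. Its PMA libraries lay below all controls (log2 -1.42 ± 0.0418, SE, adjusted p = 1.72e-10), and its ConA libraries overlapped the controls (-0.02 ± 0.0517, adjusted p = 0.761). MSMO1, whose promoter above holds 4 CCAAT matches, stood at 14588, 14147 and 14792 in the controls and 3091, 3206 and 3246 with PMA, and at 21468, 21302 and 19193 in the controls and 17460, 18811 and 18133 with ConA. It fell 4.56-fold with PMA (log2 -2.19 ± 0.0376, adjusted p = 2.94e-12) and little with ConA (-0.19 ± 0.0578, adjusted p = 0.0112), a call with ConA that quantile normalization and equal summed counts did not keep. NSDHL, the dehydrogenase of the same demethylation, fell with both treatments too (-0.90 and -0.29).

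HSD17B7, a reductase of the same step, stood at 971, 945 and 795 normalized counts in the controls and 385, 380.0 and 349 with PMA, and at 1493, 1351 and 1325 in the controls and 1335, 1410 and 1298 with ConA. Only the PMA groups separated, with log2 fold changes of -1.28 ± 0.0822 (SE, adjusted p = 1.18e-07) and -0.04 ± 0.0658 (adjusted p = 0.58). Its pseudogene HSD17B7P2, which could share reads with it, was at -1.59 with PMA (adjusted p = 2.14e-06). EBP, the sterol isomerase, stood at 2218, 2368 and 2095 in the controls and 793, 891 and 838 with PMA, and at 5870, 6377 and 5636 in the controls and 4682, 4225 and 4485 with ConA. EBP fell in both without overlap (log2 -1.40 ± 0.06 and -0.42 ± 0.0599, SE).

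SC5D, a sterol desaturase late in the route, stood at 2849, 2696 and 2830 normalized counts in the controls and 1098, 1204 and 1111 with PMA, and at 4299, 4044 and 3709 in the controls and 3193, 3463 and 3290 with ConA. It fell with both (log2 -1.29 ± 0.0495 and -0.28 ± 0.0617, SE), and no libraries overlapped. DHCR7, the reductase that turns the last precursor into cholesterol, stood at 19261, 17882 and 18885 in the controls and 5623, 5385 and 5714 with PMA, and at 24404, 25854 and 26494 in the controls and 19578, 16767 and 18503 with ConA. Again every treated library was below its controls, at -1.74 ± 0.0413 (SE, adjusted p = 3.1e-11) and -0.49 ± 0.0624 (adjusted p = 9.68e-06). TM7SF2, a sterol reductase, was at -0.23 with PMA (adjusted p = 0.119) and -0.27 with ConA (adjusted p = 0.131). It passed as lower with PMA under equal summed counts (-0.35, adjusted p = 0.0246), and with ConA under quantile normalization (-0.38, adjusted p = 0.033) and with no variance trend (-0.27, adjusted p = 0.0392).

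STARD4 was the 1 gene of the 39 that moved past the test in opposite directions with a fall under PMA. It stood at 4167, 4089 and 4390 normalized counts in the controls and 2343, 2374 and 2373 with PMA. In the ConA table it stood at 4732, 4543 and 4404 in the controls and 5621, 6589 and 5959 with ConA. All PMA libraries were below and all ConA libraries above their controls, with log2 fold changes of -0.83 ± 0.0406 (SE, adjusted p = 1.05e-08) and 0.41 ± 0.0617 (adjusted p = 4.77e-05). The difference was -1.24 ± 0.0761 (95% interval -1.40 to -1.08, adjusted p = 2.84e-10).

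Of the 8 fatty acid genes, 7 fell and ELOVL6 rose with PMA, and all 8 fell with ConA. ACSS2, which makes acetyl-CoA from acetate, stood at 3462, 3235 and 3410 normalized counts in the controls and 781, 735 and 717 with PMA, and at 8809, 8551 and 8911 in the controls and 5419, 5155 and 5364 with ConA. The groups did not overlap, at log2 -2.18 ± 0.0499 (SE, adjusted p = 2.42e-11) and -0.72 ± 0.0493 (adjusted p = 1.74e-08). ACLY, which makes acetyl-CoA from citrate, fell by less (-0.62 and -0.36).

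ACACA, the carboxylase that makes malonyl-CoA, fell more with ConA than with PMA. It stood at 8949, 8047 and 9019 normalized counts in the controls and 4750, 4428 and 4562 with PMA, and at 11817, 9649 and 11239 in the controls and 4370, 4459 and 4295 with ConA. Every treated library was below its controls, at log2 -0.92 ± 0.0497 (SE, adjusted p = 2.66e-08) and -1.31 ± 0.0672 (adjusted p = 7.81e-10). The difference of 0.39 ± 0.0901 (adjusted p = 0.00113) did not pass under equal summed counts, where it was 0.205. FASN, the synthase that builds palmitate, stood at 78235, 67067 and 92524 in the controls and 27886, 23965 and 29230 with PMA, and at 101004, 97817 and 110959 in the controls and 70950, 61203 and 67571 with ConA. It fell in both without overlap (log2 -1.55 ± 0.103 and -0.63 ± 0.0706, SE).

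SCD, the desaturase that makes oleate, had the largest fall of the 39 genes with PMA. Its level was 126551, 116551 and 136051 normalized counts in the controls and 20797, 19521 and 20544 with PMA, means of 126384 ± 9751 and 20287 ± 676 (SD, n = 3). The ConA controls held 150328, 136732 and 139739 and the ConA libraries 71159, 67958 and 67351, means of 142266 ± 7142 and 68823 ± 2046 (SD, n = 3). All treated libraries were below all controls, at log2 -2.64 ± 0.0563 (SE, adjusted p = 1.41e-11) and -1.05 ± 0.0616 (adjusted p = 3.57e-09), and the PMA change ranked 90 from the lowest among 15153 genes. The ConA call by the strict rule was lost under quantile normalization and under equal summed counts.

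FADS1 and FADS2 are desaturases of polyunsaturated fatty acids that lie side by side. FADS2 stood at 17407, 16655 and 18425 normalized counts in the controls and 5361, 5133 and 5401 with PMA, and at 24770, 25712 and 25880 in the controls and 18906, 16804 and 17358 with ConA. Its groups were separate in both tables (log2 -1.72 ± 0.044 and -0.53 ± 0.0561, SE), with a difference of -1.20 (adjusted p = 2e-10). FADS1 fell too, at -0.82 and -0.53. ELOVL6, which elongates palmitate, rose with PMA from 1571 ± 68.1 to 1771 ± 2.34 (SD, n = 3, log2 0.17, adjusted p = 0.00622) and fell with ConA from 2736 ± 191 to 2102 ± 149 (log2 -0.38, adjusted p = 0.000202). The rise with PMA did not pass under quantile normalization or equal summed counts.

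All 6 SREBP regulators fell with PMA and 4 fell with ConA. SREBF1 stood at 7195, 6625 and 8147 normalized counts in the controls and 3209, 3041 and 3276 with PMA, and at 9765, 10291 and 10257 in the controls and 9228, 8147 and 8998 with ConA. It fell without overlap in both, at log2 -1.20 ± 0.0655 (SE, adjusted p = 2.87e-08) and -0.20 ± 0.0568 (adjusted p = 0.0062). SREBF2, whose promoter above holds the sterol element core, stood at 22469, 21624 and 24079 in the controls and 12725, 12042 and 13120 with PMA, and at 23634, 24326 and 25656 in the controls and 20990, 19575 and 20268 with ConA. The falls were -0.85 ± 0.0485 (SE) and -0.27 ± 0.0539 on the log2 scale, again with no overlap.

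INSIG1, which holds the SREBP complex in the endoplasmic reticulum and is itself an SREBP target, stood at 10526, 10311 and 10782 normalized counts in the controls and 4585, 4734 and 5025 with PMA, and at 20455, 20336 and 20026 in the controls and 16417, 16877 and 16620 with ConA. Treated libraries were below all controls in both, at log2 -1.14 ± 0.0423 (SE, adjusted p = 1.08e-09) and -0.29 ± 0.0482 (adjusted p = 0.000127). Its relative INSIG2 fell by less, at -0.29 and -0.18, and the ConA call was lost under equal summed counts, with no variance trend and when ConA library 1 or 3 or control 4 or 5 was left out. SCAP, the escort protein, was at -0.29 with PMA (adjusted p = 0.00202) and -0.01 with ConA (adjusted p = 0.937). LPIN1, a phosphatidate phosphatase that also restrains nuclear SREBP, was at -0.50 and -0.06, and passed with PMA only, with a difference of -0.44 (adjusted p = 2.72e-05).

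**Figure D4:**
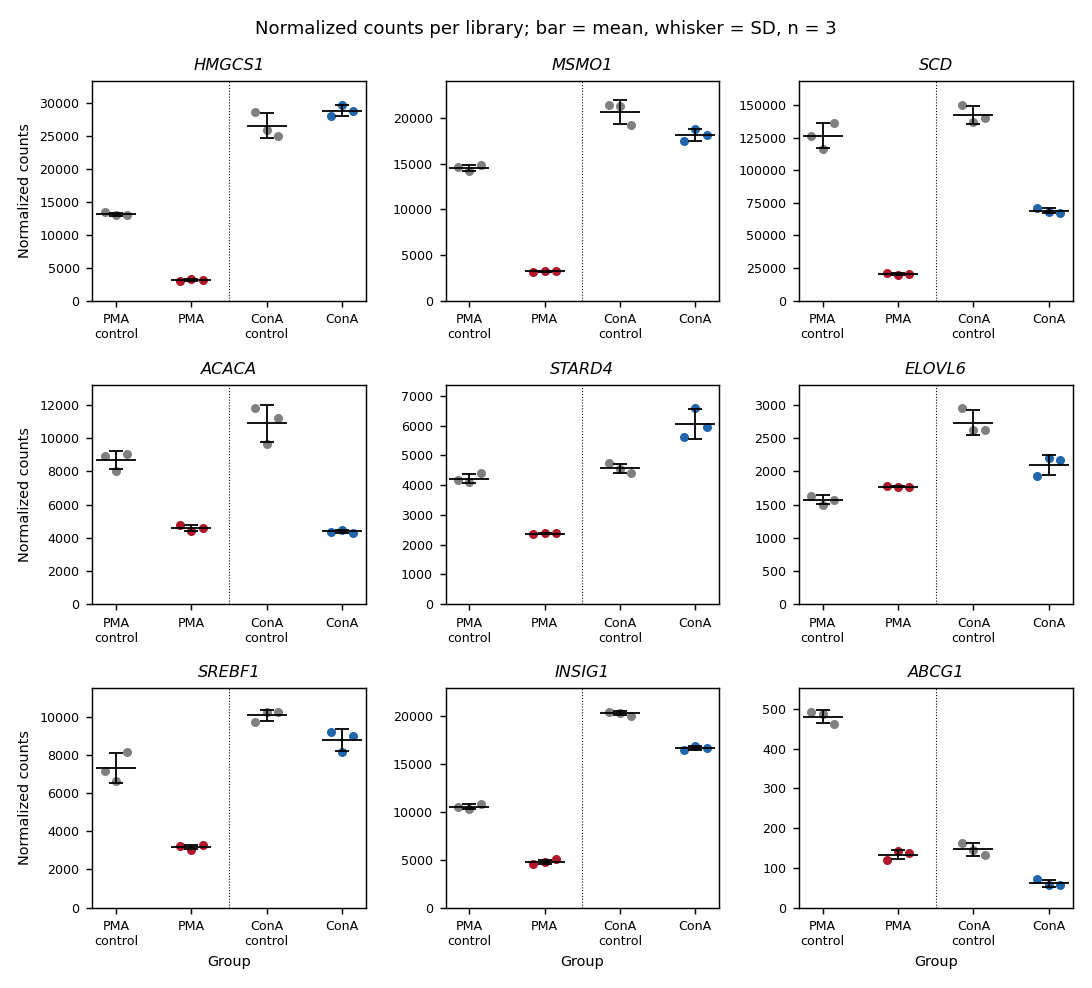
Normalized counts of 9 genes in each library (points), with the mean as a bar and the SD as a whisker (n = 3), each axis starting at 0. SCD falls from a mean of 126384 to 20287 with PMA, HMGCS1 stays near its controls with ConA, and STARD4 and ELOVL6 move in opposite directions with PMA and ConA.

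In the LXR branch 3 of 5 genes fell with PMA, all by the strict rule, and 3 of 5 fell with ConA, 1 by the strict rule. Among all genes tested, 30.5% fell with PMA and 4.61% by the strict rule, and with ConA 32.5% and 2.88%. ABCG1, a cholesterol exporter, stood at 493, 486 and 462 normalized counts in the controls and 119.6, 142 and 136 with PMA, and at 163, 146 and 131 in the controls and 71.1, 56.4 and 55.7 with ConA. It fell without overlap in both, at log2 -1.85 ± 0.0904 (SE, adjusted p = 1.07e-08) and -1.25 ± 0.153 (adjusted p = 6.11e-06). The strict ConA call of ABCG1 was lost with no variance trend. ABCA1, the other exporter and likewise an LXR target, did not pass with either treatment, at 0.00 (95% interval -0.13 to 0.14) and -0.05 (-0.20 to 0.11). Under quantile normalization it passed as lower with PMA (-0.15, adjusted p = 0.0304).

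MYLIP, a ubiquitin ligase induced by LXR, stood at 702, 678 and 727 normalized counts in the controls and 313, 308 and 299 with PMA, and at 720.1, 672 and 698 in the controls and 583, 662 and 656 with ConA. Its treated libraries lay below the controls in both tables, but it passed with PMA (log2 -1.19 ± 0.0638, SE, adjusted p = 2.45e-08) and not with ConA (-0.14 ± 0.0754, adjusted p = 0.12). With ConA it passed as lower under quantile normalization (-0.24, adjusted p = 0.0127). NR1H3, the gene of LXR alpha, stood at 504, 519.6 and 544 in the controls and 185, 182 and 213 with PMA, and at 812, 885 and 822 in the controls and 541, 469 and 543 with ConA. NR1H3 fell in both without overlap, at -1.44 ± 0.0849 (SE) and -0.70 ± 0.0793. NR1H2, the gene of LXR beta, was at 0.09 with PMA (adjusted p = 0.0476), a call lost whenever any 1 library was left out, and at -0.27 with ConA (adjusted p = 0.000832).

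Other genes of these routes came from lists set beside the 39, and their counts are to be read against all genes tested, of which 32.8% rose and 30.5% fell with PMA and 32.8% rose and 32.5% fell with ConA. Of 23 further isoprenoid and sterol genes tested, 10 rose and 8 fell with PMA, and 5 rose and 10 fell with ConA. ERG28, a scaffold of sterol enzymes, fell with PMA, with mean normalized counts of 2309 ± 13.8 in the controls and 636 ± 4.58 in treated cells (SD, n = 3, log2 -1.86, adjusted p = 3.1e-11) and by a log2 of -0.43 with ConA. LIPA, the lysosomal lipase that frees cholesterol from its esters, fell with PMA (-1.63) and rose with ConA (0.60). CYP27A1, a sterol hydroxylase, rose with ConA (1.46) from 18.9 ± 5.62 normalized counts.

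Of 11 further genes of SREBP processing, 4 rose and 1 fell with PMA, and 2 rose and 3 fell with ConA. TRIB1, a pseudokinase, rose with PMA (log2 1.42, adjusted p = 3.29e-10) and was at -0.12 with ConA (adjusted p = 0.126). ERLIN2 fell with ConA (-0.82) and MBTPS1, the protease that first cuts SREBP, fell with both (-0.22 and -0.46). Of the further fatty acid genes, 8 of 31 rose and 11 fell with PMA, and 12 of 30 rose and 14 fell with ConA. By the strict rule, 1 of these rose and 2 fell with PMA, against 4.03% and 4.61% of all genes. With ConA 2 rose and 0 fell by that rule, against 5.83% and 2.88%. The acyl-CoA ligase gene ACSL5, at 38.1 ± 4.99 normalized counts in the PMA controls (SD, n = 3), rose with both (1.10 and 3.06). So did the elongase gene ELOVL7 (1.02 and 1.43), and LPIN3 rose with ConA (1.77) from 10.5 ± 6.63 normalized counts. Of 8 further LXR genes, 1 rose and 4 fell with PMA, and 4 rose and 2 fell with ConA. LPCAT3, an acyltransferase of membrane phospholipids, fell with PMA (-1.59, adjusted p = 8.52e-10) and was at 0.03 with ConA (adjusted p = 0.704), while SMPDL3A rose with both (0.59 and 0.35) and ABCG4, at 16.6 ± 1.13 normalized counts in the PMA controls, fell with both (-1.94 and -0.90).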

How the data were processed

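The deposited values are a signal of normalized counts per gene symbol, which the authors made for the PMA and the ConA table apart. The submitters' processing notes name Partek, Bowtie2, STAR and DESeq2 without roles, and hg19 and mm10. The strand setting and the counting tool are not given in the sources used here. Of the values from 5 to 60, 81.6% to 83.9% were whole reads within 0.05 under the best factor of each library, so reads were not recovered and no test for read counts was run.

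Each treatment was compared with the 3 controls of its own table with limma 3.58.1 in R 4.3.3 (variance trend) on log2(value + 1), for genes with a mean of at least 10, with Benjamini-Hochberg adjustment over all genes tested. Fold changes on this scale understate the changes of low genes. An exact permutation test of 3 against 3 cannot go below p = 0.1, so p-values come from this fit across all genes. Values are not per length, so levels are not compared between genes. The difference between treatments was fitted over all 12 libraries. The fits were also run on simulated counts, with the same spread setting for every gene and few changed genes. Those settings differ from these data, so that run does not check the p-values given here. Genes given in every library are those that passed the strict rule in a comparison, and in each step the 2 that passed with the largest change with each treatment. From each further list, at most 3 that passed with the largest changes are named. The genes and lists were chosen with earlier results of these data known. Exon overlaps were taken from GENCODE 29. Alternatives changed the pseudocount, the minimum, the scaling, the variance trend, the libraries included and the replicate block.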

Additional observations from a re-analysis of the deposited data

Results flagged for a closer look

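For 15 of the 39 genes the PMA and ConA changes were apart by at least 2-fold at an adjusted p of at most 0.0001 (limma, 1 fit of 12 libraries), and each was lower with PMA. This difference between experiments, in log2 units, was -2.20 for HMGCS1, -1.06 for MVK, -1.34 for MVD and -1.51 for IDI1 in the mevalonate route. In the sterol route it was -1.40 for LSS, -1.40 for CYP51A1, -2.00 for MSMO1, -1.23 for HSD17B7, -1.02 for SC5D, -1.26 for DHCR7 and -1.24 for STARD4. Among the fatty acid genes it was -1.46 for ACSS2, -1.59 for SCD and -1.20 for FADS2, and in the LXR branch -1.05 for MYLIP. Treatment and experiment cannot be told apart here. SC5D no longer passed this rule when PMA library 1, ConA library 2 or ConA control 6 was left out, and MYLIP under quantile normalization.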

How the results depend on the processing

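With 3 libraries a group, the spread between libraries limits what can be called, and near-zero changes can turn sign. The number of genes that fell kept within 1.5 times of its value for PMA and for the difference under every alternative run, as did the 22 and 15 genes past the strict rule. With PMA, 2 genes rose, but 1 did with no minimum, no variance trend, 1 fit of all 12 libraries, the replicate block, and any 1 library left out (range 1 to 1), and 0 under quantile normalization and equal summed counts. The control and PMA libraries share replicate numbers, but deviations of same-numbered libraries correlated at -0.064, 0.096 and 0.096, so the numbers were not taken to pair them; the replicate block kept all 22 strict calls. No paired analysis was possible for ConA because its groups share no numbers. With ConA, 4 genes passed the strict rule, and 2 did under equal summed counts and with no variance trend; 1 rose, and 2 did under quantile normalization, equal summed counts and 1 fit of all 12 libraries, and 1 to 2 with 1 library left out. Without the variance trend, FASN, HSD17B7 and SREBF1 lost the strict call with PMA. The cause was not tested.

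Under equal summed counts the step medians with PMA moved to -1.62 (mevalonate), -1.47 (sterol), -0.79 (SREBP regulators) and -1.31 (LXR), with ConA to -0.21 (sterol), -0.13 (SREBP regulators) and -0.21 (LXR), and for the difference to -1.12 (mevalonate), -1.31 (sterol), -0.79 (fatty acid), -0.70 (SREBP regulators) and -0.79 (LXR). Under quantile normalization they moved with PMA to -1.63 (mevalonate), -1.38 (fatty acid) and -0.84 (SREBP regulators), with ConA to -0.44 (fatty acid), and for the difference to -0.96 (fatty acid), -0.72 (SREBP regulators) and -0.42 (LXR). With 1 library left out, the ConA medians ranged from -0.33 to -0.24 (LXR) and -0.21 to -0.17 (SREBP regulators), and the LXR difference from -0.68 to -0.49. The INSIG2 difference, not past the test, passed under equal summed counts (-0.30, adjusted p = 0.00926).

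Changes that turned sign were small. Under quantile normalization they were CYP51A1 with ConA (0.025), ABCA1 (-0.147, which passed as lower) and NR1H2 (-0.076) with PMA and the ABCA1 difference (-0.08). Under equal summed counts they were, with ConA, ABCA1 (0.019), CYP51A1 (0.048), GGPS1 (0.031), HSD17B7 (0.023), LPIN1 (0.01) and SCAP (0.061), with PMA, ABCA1 (-0.118) and NR1H2 (-0.033), and for the difference, ABCA1 (-0.137) and TM7SF2 (-0.145). With 1 library left out, the ranges with ConA were -0.14 to 0.016 for ABCA1, -0.048 to 0.007 for CYP51A1, -0.093 to 0.006 for GGPS1, -0.077 to 0.009 for HSD17B7, -0.026 to 0.075 for IDI1 and -0.036 to 0.046 for SCAP. With PMA the range was -0.046 to 0.08 for ABCA1, and for the difference -0.012 to 0.143 for ABCA1 and -0.034 to 0.13 for TM7SF2.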

Other observations

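At the median, normalized counts of these genes were higher in the untreated controls of the ConA table than in those of the PMA table. The median ratio of the mean levels, ConA controls over PMA controls, was 1.46 for the 39 genes. Over 14675 genes the median ratio was 1.14, so that median was above 1 as well. The ratio was above 1 for 35 of the 39 genes. The median ratio was 2.01 for the mevalonate genes, 1.45 for the sterol genes, 1.47 for the fatty acid genes, 1.27 for the SREBP regulators and 0.993 for the LXR branch. ACAT2 had the highest ratio at 2.95 and ABCG1 the lowest at 0.305. The tables were normalized separately, so these ratios were not tested.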
